A study of Mus musculus with 16 samples.

Results

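The genes examined here are 31 target genes of p53, a transcription factor that mouse cells encode as Trp53. They were set as a list of names, and every accessible region whose nearest annotated gene is on that list was taken. This gave 90 of the 70150 regions (peaks) of the deposited table, of which 33 lay within 1000 bp of a transcription start site and are called promoter peaks, and 57 lay farther away. A promoter peak was present at 29 of the 31 genes. Polk and Xpc, which act in DNA repair, had only intronic peaks under this rule.

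p53 is kept scarce by Mdm2, a ubiquitin ligase that p53 itself switches on, and it accumulates after DNA damage and other stress. It then binds response elements made of a pair of 10-letter decamers and raises genes that halt the cell cycle (Cdkn1a, which encodes p21), start apoptosis (Bbc3, Pmaip1, Bax), repair DNA or adjust metabolism. In mouse embryonic stem (ES) cells p53 is known for roles in apoptosis and differentiation.

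Accessibility was measured by ATAC-seq, which uses the Tn5 transposase to tag open DNA, in 16 libraries of the E14 mouse ES cell line, with 4 libraries for each of 4 genotypes. WT cells were compared with AID-Zzz3 and AID-Yeats2 cells, in which a subunit of the ATAC coactivator complex (unrelated to the assay's name) bears an auxin-inducible degron, and with Supt7l KO cells, which lack a subunit of the SAGA coactivator complex. Both complexes carry histone acetyltransferase activity. Every line, WT and the knockout included, was kept in auxin for 24 h, and all were grown in serum with LIF, CHIR99021 and PD0325901. Loss of the tagged proteins is not measured by these files. The series text mentions 2 clones and 2 days without numbering all 16 libraries, so the spread between libraries may be partly technical.

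Counts in peaks ran from 2492045 to 5540559 per library, and 69692 peaks, 89 of them at p53 targets, had enough counts to be tested. The ES cell label was checked against 10 ES cell markers, all of which had a promoter peak. Their summed promoter level was 282 to 317 CPM (counts scaled to the library total) in WT, 275 to 317 in AID-Zzz3, 288 to 319 in AID-Yeats2 and 325 to 354 in Supt7l KO libraries. Of 8 fibroblast markers, 4 had a promoter peak (Col1a1, Col1a2, Pdgfrb and Twist2), and Col3a1, Thy1, Lum and Dcn had none. The summed fibroblast level was 36.5 to 43.3 CPM in WT, 38.8 to 55.8 in AID-Zzz3, 39.9 to 45.2 in AID-Yeats2 and 38 to 42.1 in Supt7l KO libraries. The primitive endoderm markers, with a peak at 4 of 5, summed to 176 to 227 CPM over all libraries, and those of primed epiblast, with a peak at 2 of 4, to 34.1 to 58.8 CPM. Sox17, a primitive endoderm marker, alone had a mean of 123 CPM. The sums cover different numbers of peaks, so they do not rank the cell types.

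Promoter sequence was available for 23 of the 31 genes, in 30 windows running from 250 bases before to 50 bases after a start site (RefSeq, build GRCm38.p6). The p53 decamer consensus, which reads the same on both strands, was searched without mismatches. It was found in 11 of these 30 windows (36.7%, at 10 of 23 genes) and in 8.36% of all 32851 windows of the same length. A pair of perfect decamers 0 to 13 bases apart was found in 1 member window, upstream of Cdkn1a, and in 0.0731% of all windows. Allowing 2 mismatched letters in the pair, with the core C and G kept, gave 4 member genes, Cdkn1a, Bax, Sesn1 and Ccng1, and 4.09% of all windows. A match describes the letters and is not evidence of binding.

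The Cdkn1a stretch is shown because the peak over it is among those that rose in Supt7l KO cells. It covers chr17:29090829-29090978 (GRCm38.p6, plus strand) and ends at the base before the upstream of 2 RefSeq start sites, which lie 2790 bases apart. Capitals mark the 2 perfect decamers, at -73 and -51 from that start. The classical distal p53 response element of mouse Cdkn1a, the 20-letter run printed on the next line, begins with the decamer at -51, 2841 bases before the downstream start, and departs from the consensus by 1 letter. The last line shows the Ccng1 element at chr11:40755462-40755481 (minus strand), which also departs by 1 letter.
Cdkn1a, upstream start: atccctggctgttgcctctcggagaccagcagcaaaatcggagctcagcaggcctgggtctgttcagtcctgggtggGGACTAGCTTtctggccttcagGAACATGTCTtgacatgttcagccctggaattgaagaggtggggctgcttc
Cdkn1a, distal element: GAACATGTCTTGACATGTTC
Ccng1, promoter element: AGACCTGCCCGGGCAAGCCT

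The single decamers at other members are shown because these genes include the feedback regulators and Aen, whose promoter rose in Supt7l KO cells. Of 11 distinct decamers, 9 lay inside a member peak, and those at Bax and Polk lay outside. Positions are given from the start site of the same window.
Aen, at -121 from the downstream start: GGGCTTGTCC
Mdm2, at -186: GAACTTGCCT
Ppm1d, at -132: GAGCTTGCTC
Trp53, at -75: GGACTTGCCC
Ei24, at -10: GGGCATGCCC
Sesn1, at -173 from the downstream start: AAGCTTGTTT
Bax, at -201: AGGCAAGCTT

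The Aen stretch at chr7:78895777-78895926 (plus strand), which ends before the upstream start of Aen, has no decamer and is shown for its 2 CCAAT boxes, in capitals. CCAAT, searched on both strands, was found in 46.7% of member windows and 37.4% of all windows. GGGCGG, searched the same way, was found in 73.3% and 35.7%, and TATAAA in 3.33% and 13.6%. Member windows had a median GC content of 64.7%, against 52.7% for all windows.
Aen, upstream start: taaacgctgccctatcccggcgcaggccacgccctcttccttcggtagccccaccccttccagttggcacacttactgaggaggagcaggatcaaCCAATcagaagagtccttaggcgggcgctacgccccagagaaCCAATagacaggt

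Most p53 targets had a promoter peak in the merged peak list, and their levels are given over all libraries. The strongest promoter peak of the 29 genes had a median level of 34.2 CPM over all libraries, against 22.7 CPM for 15557 genes, and 21 of the 29 lay above that value. The highest levels were at Plk2, a stress-induced polo-like kinase (87.6 CPM), and Ccng1, cyclin G1, which recruits a phosphatase to Mdm2 (86.6 CPM). The lowest were at Fas, a death receptor (7.99 CPM), at Tnfrsf10b, the mouse TRAIL receptor (8.26 CPM), and at Trp53 itself (8.5 CPM). Levels of different peaks also depend on their widths. Member promoter peaks had a median width of 1078 bp, against 981 bp for all promoter peaks. Peaks away from promoters had a median of 8.18 CPM at members and 8.07 CPM overall. The number of peaks per gene ran from 1 at 10 genes to 11 at Pmaip1, which encodes the BH3-only protein Noxa.

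Trp53 and its negative regulator Mdm2 gave no call in any mutant against WT. The promoter peak of Trp53, 33 bases upstream of its start, had 12.1, 10.2, 6.66 and 11.2 CPM in the WT libraries and 4.66, 5.78, 10.1 and 8.25 in AID-Zzz3. It had 7.92, 4.31, 6.15 and 7.45 CPM in AID-Yeats2 and 12, 15.1, 7.69 and 6.35 in Supt7l KO. The groups overlapped, and the change from WT was -0.46 ± 0.27 on the log2 scale (SE) in AID-Zzz3, -0.67 ± 0.28 in AID-Yeats2 and 0.07 ± 0.26 in Supt7l KO (edgeR adjusted p = 0.444, 0.258 and 0.947). The AID-Zzz3 change at Trp53 stood at -1.08 in replicates 1 and 2 and at 0.07 in replicates 3 and 4. An edgeR interaction test called neither this difference nor any other peak. It rests on 2 libraries per genotype on each side, so the missing call does not show that the replicates agree. The Mdm2 promoter peak had 41.9, 40, 40.5 and 39.9 CPM in WT, 37.9, 36.6, 38.3 and 27.3 in AID-Zzz3, 47.9, 36.8, 33.5 and 34.9 in AID-Yeats2 and 43.9, 40.9, 40.6 and 38.4 in Supt7l KO. All 4 AID-Zzz3 libraries lay below all WT libraries at Mdm2, while the other lines overlapped WT. The Mdm2 changes were -0.22 ± 0.13, -0.10 ± 0.13 and 0.01 ± 0.13 (edgeR adjusted p = 0.465, 0.797 and 0.979).

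In Supt7l KO cells, 3 member peaks rose and none fell. They were the promoter of Aen, an exonuclease that acts in p53-driven apoptosis, the upstream promoter of Cdkn1a, and an intronic peak of Pmaip1. These are 3.37% of the 89 tested member peaks, while 0.342% of all tested peaks were called higher and 1.09% in either direction. At an unadjusted p under 0.05, 15 member peaks (16.9%, against 5.64% of all peaks) were higher and 2 (2.25%, against 6.74%) were lower. DESeq2 called 2 of these 3 peaks. The members and gene lists were chosen with results of these data already known, so these shares describe the list and carry no test of it.

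The Aen promoter peak, at chr7:78895615-78896580 (mm10), held 32, 31.9, 26.6 and 26.8 CPM in WT and 39, 44.1, 46.1 and 47.5 CPM in Supt7l KO. Every knockout library lay above every WT library. The increase was 0.59 ± 0.14 on the log2 scale (SE), or 1.5-fold (edgeR adjusted p = 0.0118). The AID-Zzz3 libraries overlapped both groups, at 40.9, 38.5, 36.9 and 32 CPM, with an edgeR adjusted p of 0.229 against WT, and AID-Yeats2 had 30.5, 35.7, 28.1 and 25.3 CPM. Within replicates 1 and 2 the knockout change was 0.38 and within replicates 3 and 4 it was 0.815. The edgeR call was lost in replicates 1 and 2 alone (adjusted p = 0.478), and without WT replicate 3 or Supt7l KO replicate 4 (adjusted p up to 0.0885).

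The Cdkn1a peak over the p53 response element, at chr17:29090846-29091205, was weak in WT, with 6.52, 3.93, 2.7 and 4.3 CPM, or 15 to 35 counts per library. It held 8.58, 11.5, 11.7 and 5.8 CPM in Supt7l KO, 2.33, 3.85, 3.66 and 4 in AID-Zzz3 and 5.55, 4.11, 3.2 and 6.85 in AID-Yeats2. Supt7l KO replicate 4 lay below the highest WT library, and the other 3 knockout libraries lay above all of WT. The increase was 1.10 ± 0.30 on the log2 scale, or 2.15-fold (edgeR adjusted p = 0.0435). Replicates 1 and 2 alone gave 0.93, and replicates 3 and 4 alone gave 1.33. The call sat close to the threshold: it was lost with DESeq2 (adjusted p = 0.0512), on leaving out any of 6 of the 8 libraries, all but WT replicate 1 and Supt7l KO replicate 4 (edgeR adjusted p up to 0.243), and under 4 other settings.

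The stronger Cdkn1a promoter peak, centred 126 bases past the downstream start, gave no call. It held 25, 23.1, 14.9 and 20.6 CPM in WT and 27.2, 36.1, 17.8 and 18.5 in Supt7l KO. The groups overlapped and the change was 0.28 ± 0.18 (edgeR adjusted p = 0.555). The changes in AID-Zzz3 and AID-Yeats2 were 0.26 ± 0.18 and 0.07 ± 0.19 (edgeR adjusted p = 0.535 and 0.909). The difference between the changes of the 2 Cdkn1a peaks was not tested.

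At Pmaip1, 1 of 11 peaks rose in Supt7l KO. This intronic peak, 2680 bp past the start at chr18:66460857-66461711, had 16.4, 16, 19.4 and 19.8 CPM in WT and 22.6, 21, 38.4 and 36.2 CPM in the knockout. Every knockout library lay above WT, but replicates 3 and 4 stood far above replicates 1 and 2. The increase was 0.71 ± 0.19 on the log2 scale, with 0.425 from replicates 1 and 2 and 0.93 from replicates 3 and 4 (edgeR adjusted p = 0.0356 over all libraries). It was 21.3, 13.2, 15.8 and 11 CPM in AID-Zzz3 and 13.1, 12.7, 16.2 and 17.6 in AID-Yeats2, both overlapping WT. The edgeR call was lost without WT replicate 1, 2 or 3 or Supt7l KO replicate 3 or 4 (adjusted p up to 0.197). It was also lost in replicates 1 and 2 alone, and without the peaks of chromosome Y and distal chromosomes 14 and 17. The edgeR adjusted p ran up to 0.626 over all alternatives. Without those chromosome parts, higher calls over all peaks fell from 238 to 69. The Pmaip1 promoter peak had a mean of 17 ± 4.18 CPM in WT and 21.1 ± 2.34 in Supt7l KO (SD, n = 4), a log2 change of 0.29 (edgeR adjusted p = 0.553).

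**Figure D1:**
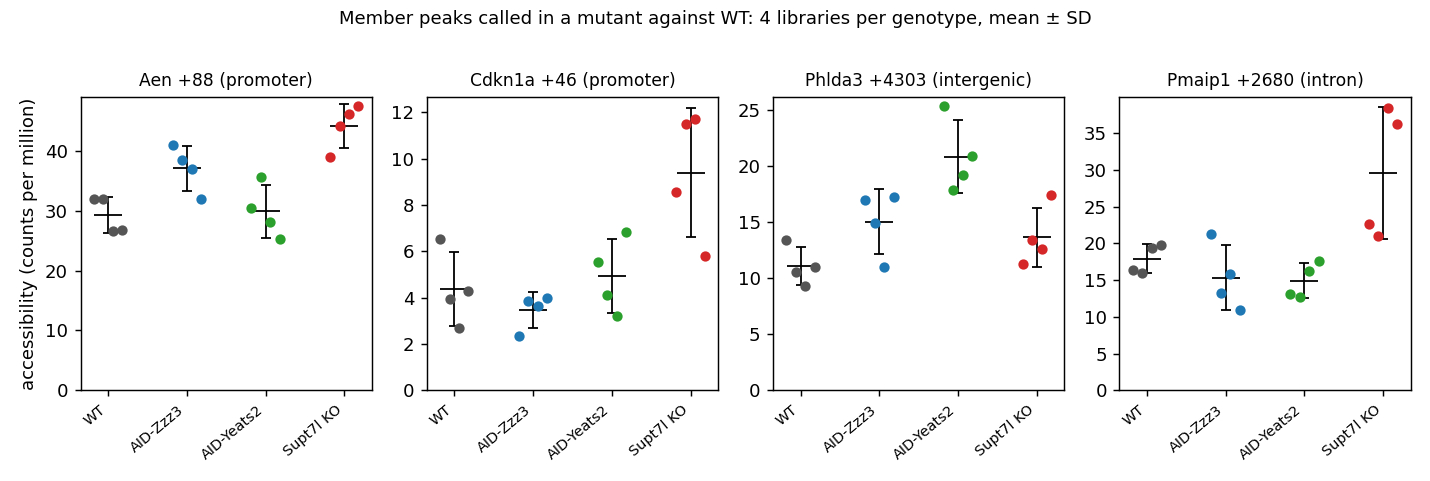
Accessibility (CPM, linear axis from 0) of the 4 member peaks called in a mutant against WT. Points are libraries, the bar is the mean of 4 and whiskers are SD. Aen +88, Cdkn1a +46 and Pmaip1 +2680 are highest in Supt7l KO, and Phlda3 +4303 is highest in AID-Yeats2, where it averages 20.8 CPM against 11.1 in WT.

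The 3 changes with the next smallest p in Supt7l KO missed the threshold, at Perp, Pidd1 and Sesn2. Perp, a p53-induced membrane protein, had 26.1, 33.1, 35.1 and 37.8 CPM in WT and 43.2, 42.4, 45.2 and 51.1 in Supt7l KO. The groups did not overlap at Perp, with a change of 0.46 ± 0.13 (edgeR adjusted p = 0.0658). Sesn2, a sestrin that restrains mTORC1, had 38.4, 40.5, 26.6 and 32 CPM in WT and 51, 46.2, 43.4 and 45.3 in the knockout, again without overlap (0.44 ± 0.14, edgeR adjusted p = 0.0961). Pidd1, a death-domain scaffold of the PIDDosome, had 24.6, 21, 15.6 and 13.9 CPM in WT and 29.7, 27.7, 29.8 and 24.3 in the knockout, with overlap (0.56 ± 0.17, edgeR adjusted p = 0.0774). Libraries of replicates 1 and 2 shared deviations, as did those of replicates 3 and 4, and when the fit blocked on these sets all 3 passed (edgeR adjusted p = 0.03 for Perp, 0.0363 for Sesn2 and 0.0384 for Pidd1). That block also raised the higher calls over all peaks in Supt7l KO from 238 to 413. The change within these sets was 0.54 and 0.41 at Perp, 0.30 and 0.61 at Sesn2, and 0.32 and 0.87 at Pidd1. In all, 4 of the 33 promoter peaks lay above WT in every knockout library (12.1%, against 4.95% of all promoter peaks). Those were Aen, Perp, Sesn2 and Tnfrsf10b.

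Tnfrsf10b lies in the distal part of chromosome 14, where peaks moved together. Its intronic peak at +3231 had 35.8, 18.5, 19.1 and 35.4 CPM in WT, 46.1, 29.8, 39.7 and 38.7 in Supt7l KO, 22.3, 15.9, 21.4 and 16 in AID-Zzz3 and 20.6, 18.1, 21.9 and 25.6 in AID-Yeats2. The 4 WT libraries were split, with replicates 1 and 4 near the knockout level and replicates 2 and 3 near that of the degron lines. The change in Supt7l KO was 0.50 ± 0.17 (edgeR adjusted p = 0.132), while the 312 peaks within 5 Mb had a median change of 0.35. In AID-Zzz3 it was -0.53 ± 0.18 (edgeR adjusted p = 0.129), beside a median of -0.30 for its neighbours. The corresponding neighbour medians were -0.02 for Aen, 0.05 for Cdkn1a and -0.01 for Pmaip1 in Supt7l KO. In the degron lines, neighbours of other members were shifted as well. Against WT, the median near Ccng1 +6077 was 0.131 in AID-Zzz3 and 0.14 in AID-Yeats2. Near Cdkn1a +46 it was -0.171 in AID-Zzz3 and -0.15 in AID-Yeats2.

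Across the promoter peaks of members, the log2 change in Supt7l KO was above 0 at 29 of 33 (87.9%, against 66.7% of all promoter peaks). The median was 0.192, beside 0.086 for all promoter peaks. By role, the median was 0.293 over 13 promoter peaks of apoptosis and survival genes, 0.247 over 6 of growth arrest genes and stress kinases, 0.1 over 5 of feedback regulators, 0.096 over 5 of metabolism and autophagy genes and 0.016 over 3 of repair and nucleotide supply genes. Members away from promoters had a median of 0.146, beside -0.04 for all such peaks. The order of roles was different there. The median was 0.297 over 6 peaks of repair and nucleotide supply genes and 0.231 over 9 of feedback regulators. It was 0.125 over 9 of metabolism and autophagy genes and 0.119 over 21 of apoptosis and survival genes. For 9 peaks of growth arrest genes and stress kinases it was -0.065. With loess offsets, which remove a trend with peak level, the promoter medians became 0.11 for members and 0.036 for all. Scaling by library totals alone gave 0.154 and 0.047.

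**Figure D2:**
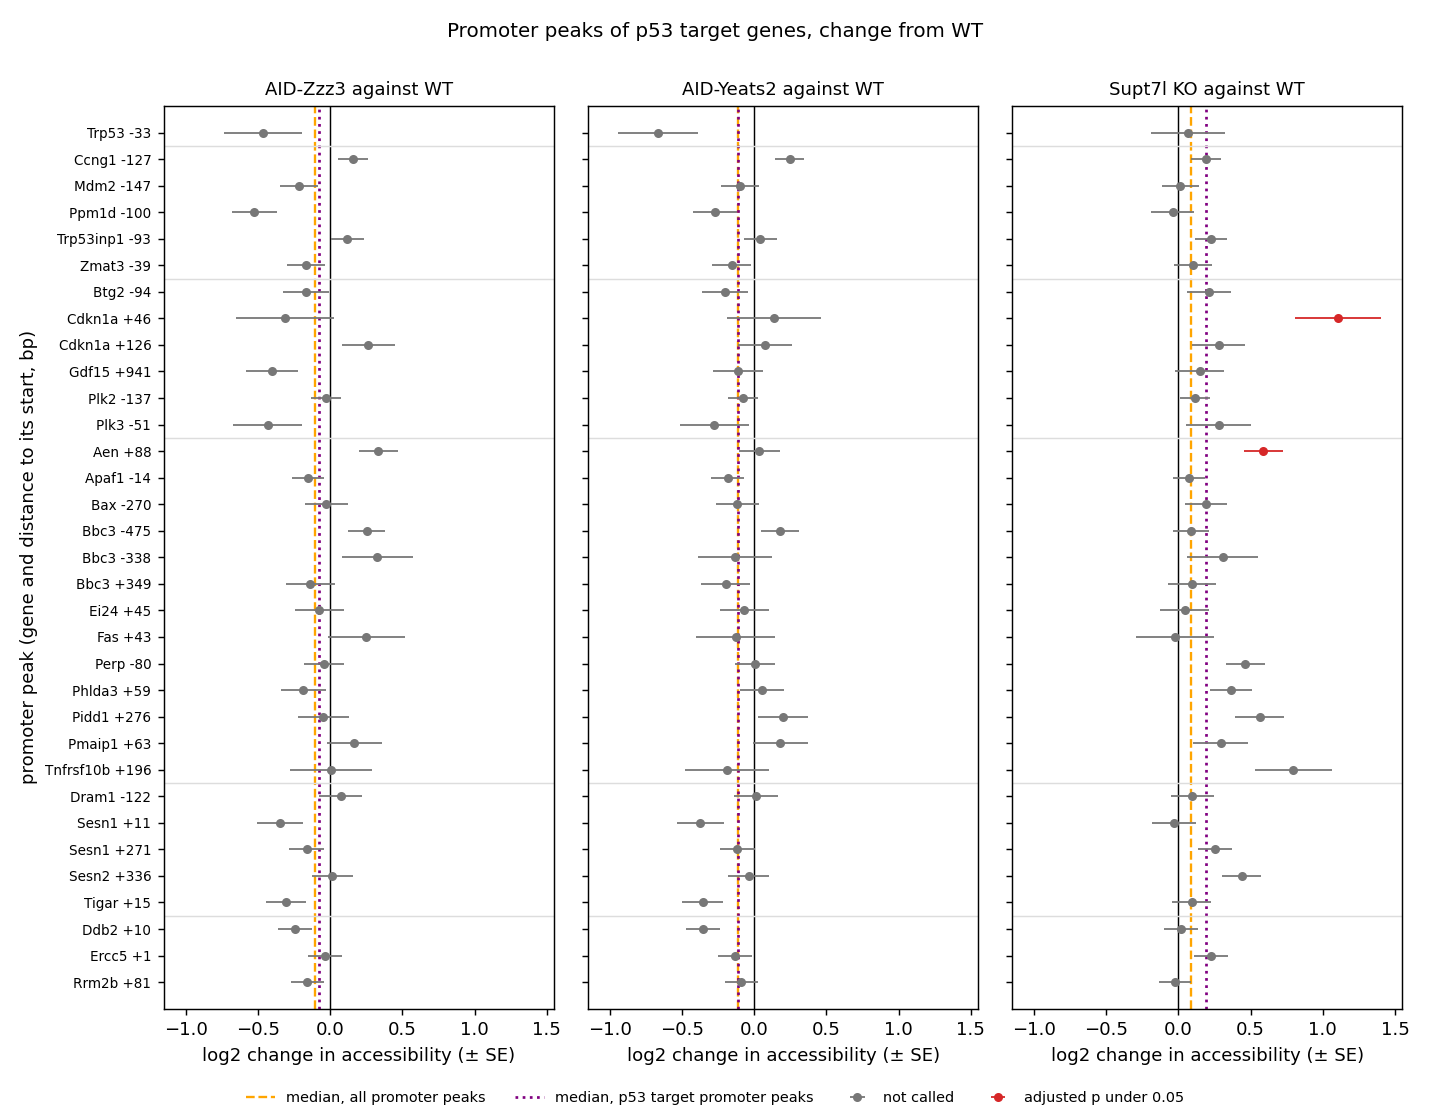
Log2 change of each member promoter peak from WT (point, with SE from the edgeR fit) in the 3 mutants, grouped by role from Trp53 at the top to repair genes at the bottom. Red points passed an adjusted p under 0.05. The dashed line is the median of all promoter peaks and the dotted line that of the members, 0.192 against 0.086 in Supt7l KO.

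The same comparison was made in each library, by taking the median log2 distance of member promoter peaks from the WT mean and subtracting that of all promoter peaks. This difference was 0.146, 0.066, 0.1 and 0.135 in the Supt7l KO libraries and 0.062, 0.025, -0.07 and -0.01 in WT. It was -0.012, 0.101, 0.038 and -0.018 in AID-Zzz3 and 0.155, 0.079, -0.083 and -0.104 in AID-Yeats2. All 4 knockout libraries lay above all of WT. The AID-Yeats2 libraries were split, with replicates 1 and 2 positive and replicates 3 and 4 negative. For peaks away from promoters the mean difference was 0.115 ± 0.039 in Supt7l KO and -0.009 ± 0.024 in WT (SD, n = 4).

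**Figure D3:**
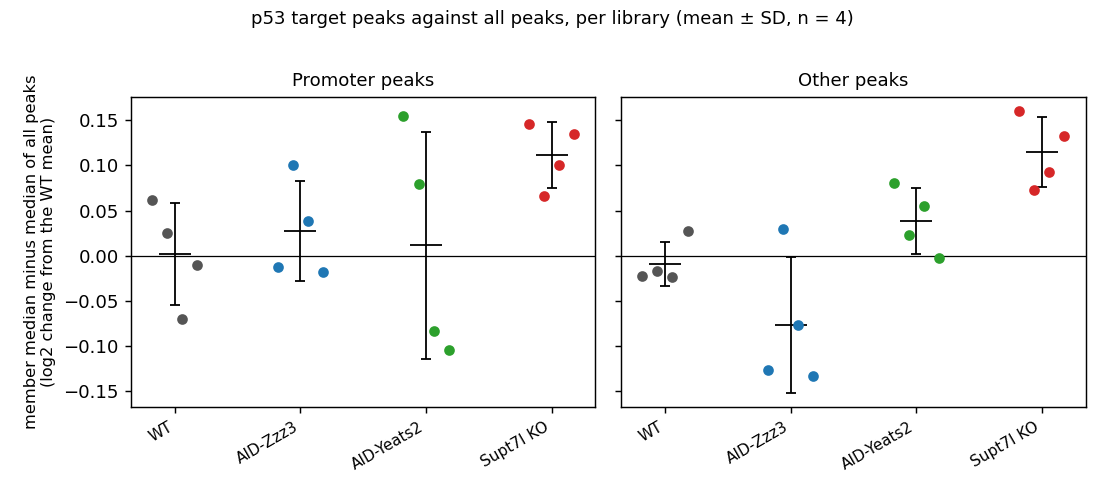
Median of member peaks minus the median of all peaks of the same class, on the log2 scale relative to the WT mean, for each library (points), with mean and SD per genotype. The 4 Supt7l KO libraries lie between 0.066 and 0.146 at promoters, and the AID-Yeats2 libraries spread from -0.104 to 0.155.

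In AID-Zzz3 cells, no member peak was called by edgeR or by DESeq2, where 0.98% of all tested peaks were called by edgeR. At an unadjusted p under 0.05, 4 member peaks were higher (4.49%, against 7.61% of all) and 9 were lower (10.1%, against 6.68%). The median change of member promoter peaks was -0.075, beside -0.106 for all promoter peaks. The smallest p was at Ppm1d, the phosphatase Wip1, which reverses p53 activation. Its promoter peak had 34.5, 25.4, 30.2 and 30.8 CPM in WT and 21.3, 24.6, 19.1 and 19 CPM in AID-Zzz3. All 4 AID-Zzz3 libraries lay below WT, by -0.53 ± 0.16 on the log2 scale (edgeR adjusted p = 0.0742). The peak passed the threshold when the fit blocked on the same sets of replicates (edgeR adjusted p = 0.0399) and without AID-Zzz3 replicate 2 (edgeR adjusted p = 0.0463). Under that block, lower calls over all peaks rose from 241 to 508. Of the 33 promoter peaks, 2 lay below WT in every AID-Zzz3 library, at Ppm1d and Mdm2 (6.06%, against 6.78% of all promoter peaks).

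The other AID-Zzz3 changes named by the smallest p were spread over roles. An intronic Trp53 peak at +1572 had 9.13, 7.86, 7.02 and 10.8 CPM in WT and 7.66, 3.61, 6.19 and 3.75 in AID-Zzz3 (-0.73 ± 0.29, edgeR adjusted p = 0.199). The intronic peak of Ddb2, which recognises UV damage, at +14623 stood at -0.77, the intronic promoter peak of the stress cytokine Gdf15 at -0.40 and the promoter of Tigar, a fructose bisphosphatase, at -0.31 (edgeR adjusted p = 0.243, 0.269 and 0.294). On the higher side, Aen stood at 0.33, the proapoptotic BH3-only gene Bbc3 (Puma) at 0.25 and the peak at the 3′ end of Ccng1 at 0.67 (edgeR adjusted p = 0.229, 0.352 and 0.274). WT and AID-Zzz3 libraries overlapped at each of these peaks.

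In AID-Yeats2 cells, 1 member peak rose and none fell (1.12% of 89, against 0.524% of all tested peaks called higher and 0.822% in either direction). It is an intergenic peak 4303 bp past the start of Phlda3, which encodes a pleckstrin-homology protein that restrains Akt, at chr1:135770780-135772095. It held 13.4, 10.6, 9.35 and 11 CPM in WT and 25.4, 17.9, 19.2 and 20.9 CPM in AID-Yeats2. Every AID-Yeats2 library lay above every WT library. The increase was 0.89 ± 0.20 on the log2 scale, or 1.85-fold (edgeR adjusted p = 0.0144), with 0.80 in replicates 1 and 2 and 0.98 in replicates 3 and 4. The AID-Zzz3 libraries, at 17, 14.9, 11 and 17.3 CPM, overlapped WT, with a change of 0.43 (edgeR adjusted p = 0.317), and Supt7l KO had 11.3, 13.4, 12.6 and 17.4 CPM. Leaving out WT replicate 3, WT replicate 4 or AID-Yeats2 replicate 1 took the edgeR adjusted p above the threshold, up to 0.0567.

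The Phlda3 promoter peak itself had means of 28.6 ± 5.76 CPM in WT and 29.7 ± 4.79 in AID-Yeats2 (SD, n = 4), a log2 change of 0.06 (edgeR adjusted p = 0.914). At an unadjusted p under 0.05, 8 member peaks were higher in AID-Yeats2 (8.99%, against 6.88%) and 6 were lower (6.74%, against 6.54%). The median of member promoter peaks was -0.109, beside -0.112 for all promoter peaks. A weak intergenic Pmaip1 peak at +11036 had 4.28, 1.39, 2.16 and 2.39 CPM in WT and 10.7, 3.9, 2.71 and 9.53 in AID-Yeats2. The groups overlapped there, with a change of 1.29 ± 0.37 (edgeR adjusted p = 0.0692, or 0.0353 without AID-Yeats2 replicate 3). The Ccng1 promoter had 69.5, 83.9, 72.9 and 86 CPM in WT and 87.2, 86.8, 93.1 and 102 in AID-Yeats2, without overlap (0.25 ± 0.10, edgeR adjusted p = 0.261). The other peaks within 5 Mb of it had a median change of 0.14.

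**Figure D4:**
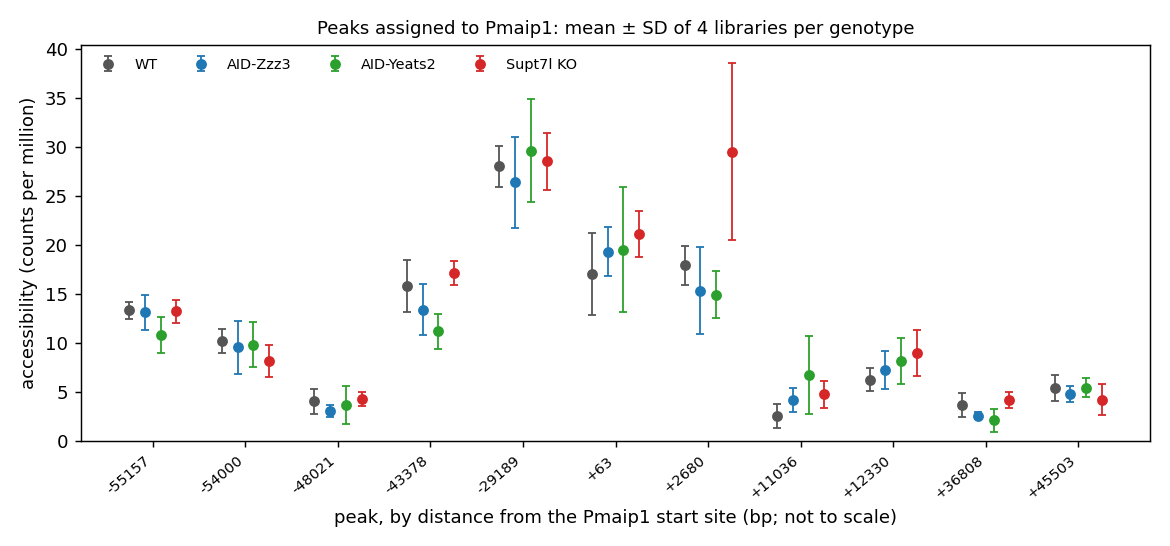
Mean accessibility (CPM, SD whiskers, n = 4) of the 11 peaks assigned to Pmaip1, in order of distance from its start site, for each genotype. At +2680 the Supt7l KO mean is 29.5 CPM against 17.9 in WT, and the largest peak upstream, at -29189, has similar means in every genotype, from 26.4 to 29.6.

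Both degron lines were also compared with Supt7l KO, using the mean of AID-Zzz3 and AID-Yeats2. Here 20 member peaks were lower in the degron lines and 3 were higher (25.8% called, against 17.6% of all tested peaks, with 8.57% of all called higher). The lower calls made up 22.5% of member peaks, against 8.98% of all, and 39.4% of member promoter peaks, against 21.3% of all promoter peaks. The median change of member promoter peaks was -0.31, beside -0.201 for all. This comparison reuses the knockout libraries of the comparison with WT, so it is no separate evidence for the peaks named above. With loess offsets 10 member peaks were lower, and without Supt7l KO replicate 1 there were 11. The lower calls over all peaks fell too, from 6259 to 3629 and 4313.

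The lower calls fell on 15 genes, and most roles were represented. Among apoptosis genes they were Aen (-0.40), Perp (-0.48), Pidd1 (-0.49), the Phlda3 promoter (-0.43), 2 peaks of Pmaip1 and all 3 peaks of Tnfrsf10b. Pmaip1 +2680 stood at -0.96 ± 0.16 (edgeR adjusted p = 1.38e-05) and Tnfrsf10b +3231 at -0.94 ± 0.15 (edgeR adjusted p = 3e-06), the latter beside a median of -0.63 for the 312 peaks within 5 Mb. Among growth arrest genes they were Cdkn1a +46 at -1.19 ± 0.26 (edgeR adjusted p = 0.000697), Btg2, an antiproliferative cofactor (-0.40), and 2 peaks of the kinase Plk3, with the promoter at -0.64. The other peaks within 5 Mb of Cdkn1a +46 had a median of -0.214. Sesn1, Sesn2 and Tigar stood at -0.39, -0.45 and -0.42, the Sesn1 peak being that at +271, which also lies near a RefSeq start of Cep57l1. Ddb2 was lower at its promoter (-0.32) and in its intron (-0.99), Ercc5, a nucleotide excision repair endonuclease, at its promoter (-0.31), and Zmat3, an RNA-binding zinc finger gene, in an exon (-0.34). The edgeR adjusted p of all lower calls ran up to 0.0444 (Pmaip1 -43378). These calls differed in how well they held under other settings. Tnfrsf10b +3231 kept its call in 23 of 23 alternatives and Pmaip1 +2680 in 23 of 24. Btg2 kept it in 14 of 24, Plk3 -5232 and Pmaip1 -43378 in 10 of 24 each, and Zmat3 in 9 of 24.

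The intronic Ddb2 peak had 11.5, 7.34, 8.3 and 8.01 CPM in Supt7l KO, 3.33, 5.54, 1.97 and 3 in AID-Zzz3 and 7.13, 6.16, 3.45 and 5.66 in AID-Yeats2. Every degron library lay below every knockout library (edgeR adjusted p = 0.00451). The 3 higher calls were intergenic peaks of Plk2 at +8532 (0.92) and -12468 (0.78) and the peak at the 3′ end of Ccng1 (0.88), with edgeR adjusted p of 0.00706, 0.0277 and 0.0201. The other peaks within 5 Mb of this Ccng1 peak had a median of 0.212. At Plk2 +8532 the WT libraries held 11, 6.24, 9.35 and 8.84 CPM and the knockout 5.64, 5.46, 6.46 and 3.87, so that 1 knockout library lay above the lowest WT library. The strongest promoter, that of Plk2, had means of 87.4 ± 5.03 CPM in WT, 85.4 ± 10 in AID-Zzz3, 82.8 ± 8.39 in AID-Yeats2 and 94.7 ± 9.46 in Supt7l KO (SD, n = 4), and it was called in none of the 4 comparisons.

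Members without a call in any comparison were Trp53, Mdm2, Ppm1d, Trp53inp1, Gdf15, Bax, Bbc3, Fas, Apaf1, Ei24, Dram1, Rrm2b, Polk and Xpc. Of these, Trp53 and Ppm1d came closest in the degron lines against Supt7l KO. Trp53 stood at -0.63 (edgeR adjusted p = 0.0504) and passed in 9 of 23 alternatives, with adjusted p from 0.0031 to 0.812, but its change was -1.30 from replicates 1 and 2 alone, against 0.17 from replicates 3 and 4. Ppm1d stood at -0.36 (edgeR adjusted p = 0.0508), with 0.037 under the block for these sets and 0.0468 by DESeq2. Trp53inp1, a stress protein that promotes p53 activity, had a promoter at 52.1 ± 3.84 CPM in WT and 61.1 ± 4.94 in Supt7l KO (SD, n = 4). Bax, the mitochondrial pore former, had 33.7 ± 4.71 and 38.5 ± 5.74 CPM. Apaf1, the apoptosome scaffold, had 68.7 ± 4.51 and 72.3 ± 8.83 CPM at its promoter. Rrm2b, a ribonucleotide reductase subunit, had 74.2 ± 10.2 and 72.9 ± 8.68 CPM, and Dram1, an autophagy regulator, 26.9 ± 2.99 and 28.7 ± 5.02 CPM. In the authors' deposited table, member peaks passing the same threshold numbered 0 for AID-Zzz3, 2 for AID-Yeats2 (Phlda3 +4303 and Pmaip1 +11036) and 4 for Supt7l KO (Aen, Cdkn1a +46, Pmaip1 +2680 and Perp), all higher than WT. The share of all peaks called higher in the authors' deposited table was 1.1%, 0.874% and 0.457% in these comparisons, over peaks with an adjusted p there. The name of that table refers to a batch and a day, while the main fit here had no such term. The authors' adjusted p (DESeq2) was 0.0385 at Perp and 0.0391 at Pmaip1 +11036. Blocked on the sets of replicates, the edgeR adjusted p here was 0.03 and 0.0395.

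Other genes of the pathway were read at their strongest promoter peak. Of 24 p53 regulators outside the list, 18 were measured, and edgeR called none in any mutant against WT, with 4, 3 and 0 lower and none higher at an unadjusted p under 0.05 in AID-Zzz3, AID-Yeats2 and Supt7l KO. The first 2 counts are 22.2% and 16.7% of the regulators, against 14.2% and 15.7% of 15557 genes read the same way. Of 40 further p53 targets, 36 were measured, and 1 was called against WT: Bid, a proapoptotic BH3-only gene, was higher in Supt7l KO (0.48 ± 0.13, edgeR adjusted p = 0.0486). Of the 15557 genes, 0.508% were called higher there. At an unadjusted p under 0.05, 2, 3 and 5 further targets were higher and 4, 5 and 0 lower in AID-Zzz3, AID-Yeats2 and Supt7l KO. The shares of the 15557 genes were 4.08%, 3.16% and 8.68% higher and 14.2%, 15.7% and 2.73% lower. Of 18 cell cycle genes that p53 lowers through p21 and the DREAM complex, 16 were measured and edgeR called none against WT, with 3, 2 and 0 lower and 0, 0 and 1 higher at an unadjusted p under 0.05 (18.8% and 12.5% lower in the degron lines). The median changes of these 3 lists in Supt7l KO were 0.063, 0.097 and 0.14, beside 0.09 for the 15557 genes. Between the degron lines and Supt7l KO, these lists gave 2, 8 and 6 lower calls and 0, 1 and 0 higher calls. The lower calls are 11.1%, 22.2% and 37.5% of each list, against 24% of the 15557 genes, of which 3.47% were called higher. The 2 regulators called lower were Prmt5 (-0.37 ± 0.12, edgeR adjusted p = 0.0288) and Wrap53 (-0.55 ± 0.16, edgeR adjusted p = 0.00984). The Wrap53 peak, at chr11:69579018-69579582, lies just before the Trp53 promoter window, which begins at base 69580109.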

How the data were processed

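ATAC-seq was read in 16 libraries, 4 per genotype. Per the submitters' processing notes, the authors used bcl2fastq 2.17.1.14, Bowtie2 2.2.6, MACS2 2.1.1.20160309, bedtools 2.26.0, HOMER and DESeq2 1.16.1 with build mm10. The deposited table gives raw read counts per library over 1 merged list of 70150 peaks. Per the file headers, HOMER assigned each peak to the nearest start site, and the deposited log2 fold changes and adjusted p-values are from the authors' own comparisons. The 16 columns of rescaled values per library were not used.

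All peaks were fitted together with edgeR 4.0.16 (R 4.3.3, limma 3.58.1) on the deposited counts: TMM scaling, filterByExpr (458 peaks removed) and 2-sided quasi-likelihood F tests with Benjamini-Hochberg adjustment over 69692 peaks, called under 0.05. DESeq2 1.42.0 was an alternative. The procedure was tested on simulated data. Levels are CPM of TMM-scaled counts. A prior count of 2 was added before taking log2 of single libraries. Reads without molecular identifiers are not independent molecules.

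The members, their roles and the lists were chosen with earlier results of these data known, so no test over the list was made. Values in every library are given for Trp53, Mdm2 and Cdkn1a, for called peaks and for the 3 peaks per direction, class and mutant with the smallest p, in part as summaries. No 2 replicates of a genotype agreed within sampling noise (chi-square per peak 1.99 to 2.94). The genotype of each library, but neither its clone nor its day, was given by the labels, so the main fit used no covariate. Fits blocked on replicate number, or on replicates 1 and 2 against 3 and 4, were alternatives and gave more calls against WT. Libraries of replicates 1 and 2 shared deviations, as did those of replicates 3 and 4, so values within these sets are printed too. Figures were drawn with matplotlib.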

Additional observations from a re-analysis of the deposited data

Results flagged for a closer look

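In 41 named peaks, 164 groups of 4 libraries were checked for a library far from the other 3. Chance marks about 1 group in 20, and 7 groups were marked, each at a different peak. At the Mdm2 promoter, AID-Zzz3 replicate 4 had 27.3 CPM while the others had 36.6 to 38.3. At the Btg2 promoter, WT replicate 4 had 31.5 CPM (others 24.8 to 25.7). At Ccng1 +6077, WT replicate 3 had 7.55 CPM (others 5.22 to 5.5), and at Ccng1 -8354, AID-Zzz3 replicate 2 had 8.67 CPM (others 5.35 to 5.66). At Tnfrsf10b +196, Supt7l KO replicate 1 had 16.4 CPM (others 10.5 to 11.3). At Zmat3 +23967, AID-Zzz3 replicate 1 had 36.6 CPM (others 26.7 to 28.2), and at Apaf1 +21422 it had 11 CPM (others 13.2 to 13.5). A test of whether a mutant's change differed between replicates 1 and 2 and replicates 3 and 4 (edgeR interaction) called no member peak and no other peak. With 2 libraries per genotype on each side, this does not show that the changes were alike.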

How the results depend on the processing

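Few counts limit precision: the Supt7l KO change had an SE of 0.299 at Cdkn1a +46, with 15 to 35 counts per WT library, and 0.135 at Aen, with 112 to 172. Of the summary values under alternatives, 302 stayed close to the reported ones and 50 moved. Of the values for single named peaks, 1281 kept direction and side of the threshold, 144 lost and 22 gained a call, and 30 turned sign, none of them called in the reported fit. The cause of these shifts was not tested, beyond the fewer libraries or peaks that some settings use.

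The replicate numbers were not seen to pair the libraries beyond these sets of replicates 1 and 2 and replicates 3 and 4. Correlations of deviations between same-numbered libraries ran from 0.0163 to 0.111, and 1 of 24 was over 0.1. Between other numbers of the same set they ran from 0.0231 to 0.103, and between sets from -0.109 to -0.0167. Of 16 libraries, 9 correlated best with their own number. With the replicate block, member calls became 1 lower in AID-Zzz3, 2 higher in AID-Yeats2 and 7 higher in Supt7l KO. With a block of replicates 1 and 2 against 3 and 4 they became 1, 2 and 6. Calls over all peaks rose too with the replicate block, from 241 to 503 lower in AID-Zzz3, 365 to 678 higher in AID-Yeats2 and 238 to 404 higher in Supt7l KO. With the block of replicates 1 and 2 against 3 and 4 these calls over all peaks reached 508, 707 and 413.

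With replicates 1 and 2 only, higher calls were 0 in AID-Yeats2 and 0 in Supt7l KO, the AID-Zzz3 promoter median was 0.024, and the degron lines against Supt7l KO gave 0 higher, 5 lower, a promoter median of -0.271 and a median of -0.155 elsewhere. Over all peaks, higher calls were then 11 in AID-Yeats2 and 32 in Supt7l KO. The degron lines against Supt7l KO gave 2107 higher and 2421 lower over all peaks. With replicates 3 and 4 only, AID-Yeats2 had 0 higher calls, the Supt7l KO median away from promoters was 0.085, and the degron lines against Supt7l KO gave 10 lower and a promoter median of -0.364. Over all peaks, AID-Yeats2 then had 90 higher calls and the degron lines against Supt7l KO had 2930 lower calls. Loess offsets gave 2 higher in AID-Yeats2, a Supt7l KO promoter median of 0.11, and 10 lower and -0.171 for the degron lines against Supt7l KO. Restricting to peaks above the median level gave a Supt7l KO promoter median of 0.132 and, for the degron lines against Supt7l KO, 0 higher, 10 lower and medians of -0.204 and -0.148. Over all peaks, that restriction gave 3848 higher and 3189 lower for the degron lines against Supt7l KO. Library totals alone gave medians of -0.244 and 0.028 there, with the median of all peaks at 0.064. Without chromosome Y and distal 14 and 17, Supt7l KO had 1 higher call, at Aen, and 69 over all peaks. The AID-Yeats2 median away from promoters was then 0.078. A wider promoter window gave 0.095 for that median and 0.044 for the degron lines against Supt7l KO.

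On leaving out 1 library at a time, higher calls ran from 0 to 2 in AID-Yeats2 and 0 to 4 in Supt7l KO (0 without WT replicate 3), and lower calls from 0 to 1 in AID-Zzz3. Over all peaks, higher calls ran from 127 to 293 in AID-Yeats2 and 29 to 315 in Supt7l KO (29 without WT replicate 3). Lower calls over all peaks ran from 70 to 363 in AID-Zzz3. The degron lines against Supt7l KO gave 2 to 4 higher and 11 to 23 lower, beside 4297 to 6169 higher and 4120 to 6488 lower over all peaks. Promoter medians ran from -0.122 to -0.065 in AID-Zzz3, -0.112 to -0.046 in AID-Yeats2, 0.141 to 0.201 in Supt7l KO and -0.321 to -0.28 for the degron lines against Supt7l KO. Medians elsewhere ran from -0.09 to 0.009, 0.003 to 0.104, 0.069 to 0.173 and -0.116 to -0.005.

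Signs turned at these uncalled peaks. In Supt7l KO against WT, Mdm2 became -0.025 with library totals, -0.072 with loess offsets, -0.025 above the median level and -0.022 in replicates 3 and 4, and ran from -0.019 to 0.043 on leaving out 1 library. Trp53 became -0.326 in replicates 3 and 4 and ran from -0.19 (without Supt7l KO replicate 2) to 0.235. Rrm2b became 0.107 in replicates 1 and 2 and ran from -0.095 to 0.05, Sesn1 +11 became 0.271 there and ran from -0.146 to 0.087, and Ppm1d ran from -0.112 to 0.031. In AID-Yeats2, Mdm2 became 0.009 with loess offsets and 0.021 in replicates 1 and 2, Cdkn1a +126 became -0.025 in replicates 1 and 2 and ran from -0.065 (without WT replicate 3) to 0.18, and Pidd1 became -0.138 in replicates 1 and 2. In AID-Zzz3, Trp53 became 0.065 in replicates 3 and 4. For the degron lines against Supt7l KO, Mdm2 became 0.01 with loess offsets, Trp53 became 0.171 in replicates 3 and 4, and Cdkn1a +126 became 0.182 there and ran from -0.233 to 0.137 (without Supt7l KO replicate 2).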
